A study of Mus musculus with 20 samples.

Results

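The hepcidin and iron regulation genes comprise 10 of the 18193 genes measured by a probe set of their own: Hamp, Hamp2, Bmp6, Hjv (named Hfe2 in older annotation), Hfe, Tfr2, Id1, Tfrc, Scara5 and Slc40a1. The genes were selected on their role and with their levels in these arrays already known. For each, the probe set was chosen by its mean over the 20 arrays, the highest being kept, and all 10 lay above the filter on low values. The closest such choice was Tfr2, with means of 11.95 for the probe set kept and 11.73 for the other. Liver RNA came from male C57BL/6J mice labelled as 8 weeks old, with 1 array per mouse. The 005MSXH group (10 mice) ate a diet with 45 kcal% of energy as fat plus 0.05% of a maple syrup extract called MSXH, and the HFD group (10 mice) ate the same high-fat diet alone. All 20 mice had been on their diet for 4 weeks and were killed on day 30 after a 16 h fast, so no fed or low-fat animals enter these values. The labels call the arrays biological replicates and name no shared litter, cage or pool.

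Hepcidin is a peptide hormone that hepatocytes secrete and that lowers iron entry into blood by causing the iron exporter ferroportin to be degraded. The liver sets its transcription mainly through bone morphogenetic protein (BMP) signalling to SMAD factors, with BMP6 from endothelial cells as a ligand and hemojuvelin, HFE and transferrin receptor 2 on the hepatocyte as modulators, and through IL-6 signalling to STAT3 in inflammation. The mRNA of the transferrin receptor, Tfrc, is stabilised by iron regulatory proteins when cell iron is low.

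The deposited log2 values are compressed between arrays, so differences cannot be read as fold changes. The median SD of a probe set over the 20 arrays was 9.33e-06. Values of single mice are therefore given in SD units, the deviation from the mean over the 20 mice divided by that gene's SD over the 20 mice, and group differences as Hedges' g, which divides the difference of the means by the pooled SD within groups. Among the 10 genes the range over the mice ran from 6.93e-06 (Tfr2) to 0.484 (Scara5) on the deposited log2 scale. Of markers for the labelled tissue, 5 of 5 hepatocyte genes (Alb, Apoa1, Ttr, Fgb and Cps1) lay above the filter. So did 8 of 8 Kupffer cell, 8 of 8 sinusoidal endothelial and 7 of 8 stellate cell and fibroblast markers, and, of those on the array, 3 of 4 red blood cell and 2 of 4 bile duct markers. Fewer cells of a type and less RNA per cell cannot be told apart in such samples.

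Mice carry a pair of neighbouring hepcidin genes on chromosome 7. Hamp encodes the iron-regulatory hormone, and Hamp2 encodes a related peptide without a settled role in iron balance. Their upstream sequences are shown because both genes were measured here and the near-identical copies differ at a match to the core of the BMP response element. Bases farther upstream were not searched. The windows are the 250 bases before each transcription start in RefSeq (GRCm38.p6), chr7:30944030-30944279 for Hamp and chr7:30924182-30924431 for Hamp2, both on the minus strand and written 5′ to 3′. Capitals mark matches to 3 motifs searched on both strands, GGCGCC (the core of the BMP response element), TTCNNNGAA (a STAT site) and CACGTG (an E-box), which did not overlap in these windows.
Hamp: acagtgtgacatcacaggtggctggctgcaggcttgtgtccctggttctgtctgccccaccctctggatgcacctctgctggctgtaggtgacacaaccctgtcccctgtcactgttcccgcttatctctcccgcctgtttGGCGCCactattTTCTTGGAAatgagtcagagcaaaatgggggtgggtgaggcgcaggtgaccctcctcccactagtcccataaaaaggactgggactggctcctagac
Hamp2: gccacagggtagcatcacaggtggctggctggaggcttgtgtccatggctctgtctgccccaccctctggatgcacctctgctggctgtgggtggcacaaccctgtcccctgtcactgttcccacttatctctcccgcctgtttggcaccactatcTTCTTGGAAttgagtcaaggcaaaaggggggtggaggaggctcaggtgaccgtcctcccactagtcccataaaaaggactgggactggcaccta
In alignment, 227 of 247 bases were identical (91.9%). Both windows held a STAT match at TTCTTGGAA, 97 to 89 bases before the start in Hamp and 94 to 86 bases before it in Hamp2. GGCGCC was found in Hamp, 109 to 104 bases before the start, and not in Hamp2, where the aligned bases carry the substitution G4A (Hamp base, position counted from 1 at the 5′ end of GGCGCC, Hamp2 base). Of 32851 such windows in the RefSeq table, 9.59% held GGCGCC, 7.02% TTCNNNGAA and 6.02% CACGTG. Windows were found for 6 of the 10 genes. A window of Tfrc held GGCGCC and that of Bmp6 held CACGTG. The windows of Tfr2 and Hfe held none of the 3 motifs.

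No diet difference in Hamp was detected. In 005MSXH livers Hamp ran from -1.59 to 1.71 SD units with a median of -0.151, and in HFD livers from -1.58 to 1.74 with a median of -0.0496. The groups covered nearly the same range. The mean log2 levels were 11.3008 in 005MSXH and 11.3009 in HFD livers, with g = -0.0644 (95% interval -0.941 to 0.812, n = 10 per group). In limma the unadjusted p was 0.88 and the adjusted p 0.9998. A second Hamp probe set followed the first across the mice (rho = 0.986) and had g = -0.0712.

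Nor was a difference in Hamp2 detected. It lay between -2.95 and 1.12 SD units in 005MSXH livers (median 0.0798), and between -1.25 and 1.2 in HFD livers (median 0.302). The lowest value belonged to 005MSXH replicate 7, which was also the lowest of its group for Hamp. The difference was g = -0.117 (95% interval -0.994 to 0.76, limma adjusted p = 0.9998). Despite the similar upstream sequence printed above, the probe sets of Hamp and Hamp2 did not follow each other over the 20 mice (rho = 0.0481, permutation p = 0.841; r = 0.131, permutation p = 0.583). The other Hamp2 probe set lay below the filter at a mean of 6.428 and followed neither its partner (rho = 0.266) nor Hamp in the same sense (rho with Hamp -0.577). Names ending in _x_at, as for the Hamp2 and Tfr2 probe sets used and the second Hamp probe set, mark probe sets whose probes can match other transcripts. Cross-hybridisation was not tested, whether between the hepcidin copies or for Tfr2.

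**Figure D1:**
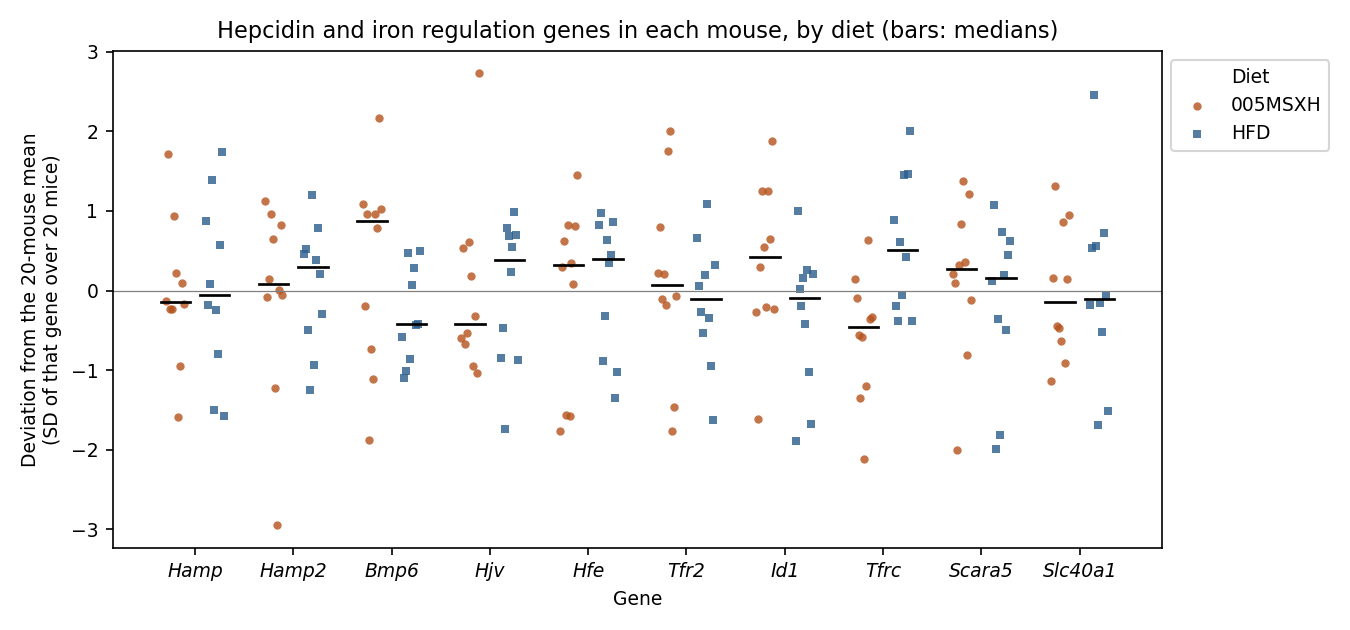
Each point is 1 mouse, in SD units of its gene (vertical axis) for the 10 genes (horizontal axis), with 005MSXH left of HFD and a black bar at each group's median. The groups overlap for every gene. The medians of Tfrc lie at -0.461 in 005MSXH and 0.513 in HFD mice, and those of Hamp at -0.151 in 005MSXH and -0.0496 in HFD mice.

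Of the genes that act upstream of hepcidin, none differed past the threshold. Bmp6, the endothelial ligand, ran from -1.88 to 2.17 SD units in 005MSXH livers (median 0.876) and from -1.1 to 0.501 in HFD livers (median -0.424). Thus 005MSXH mice were spread more widely and 7 of 10 lay above the HFD median, with g = 0.608 (95% interval -0.288 to 1.5, limma unadjusted p = 0.167, adjusted p = 0.9998). Without 005MSXH replicate 4 its g was 0.991, and with quantile normalization -0.0563. Bmp6 was measured near the filter level, at a mean of 6.998 against 6.5054. Markers of the sinusoidal endothelium, the cells that make BMP6, had a median g of 0.541 with 7 of 8 above 0, and the average of the 8 markers in SD units ran from -1.03 to 0.878 in 005MSXH and from -0.788 to 0.553 in HFD livers. Their part in the Bmp6 values was not tested.

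Hjv encodes hemojuvelin, the BMP co-receptor, and had g = -0.00767 (95% interval -0.884 to 0.869). Its 005MSXH livers ran from -1.04 to 2.73 SD units (median -0.424) and its HFD livers from -1.74 to 0.995 (median 0.392). The medians thus lay apart while the means nearly coincided. In 005MSXH livers replicate 10 stood far above the other mice, and without it g was -0.376. In HFD livers the longer tail was on the low side. In Hfe the 005MSXH livers ran from -1.77 to 1.45 SD units and the HFD livers from -1.35 to 0.979, so the groups overlapped throughout. Hfe, the membrane protein mutated in hereditary haemochromatosis, had g = -0.0962 with the probe set used and 0.47 with the other, and the probe sets hardly followed each other (rho = 0.146). Tfr2, the hepatocyte's sensor of iron-loaded transferrin, had g = 0.264 and 0.676 with its probe sets (rho = 0.271 between them). The probe set used for Tfr2, also an _x_at set, had an SD of only 1.83e-06, smaller than that of all but 2.16% of the genes tested.

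Id1 is a target of SMAD signalling and is often read beside hepcidin as a measure of it. In 005MSXH livers Id1 lay between -1.61 and 1.88 SD units (median 0.424), and in HFD livers between -1.89 and 0.998 (median -0.0911). The ranges overlapped widely and 6 of 10 005MSXH mice were above the HFD median. The mean log2 levels were 7.36501 in 005MSXH and 7.36356 in HFD livers, with g = 0.712 (95% interval -0.191 to 1.62, limma unadjusted p = 0.107, adjusted p = 0.9998).

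Tfrc, the receptor that takes up transferrin-bound iron, stood furthest apart of the 10 genes but did not pass the threshold. In 005MSXH livers it ran from -2.12 to 0.635 SD units with a median of -0.461, and in HFD livers from -0.383 to 2 with a median of 0.513. Of the 005MSXH mice, 1 of 10 exceeded the HFD median, although the groups overlapped between -0.383 and 0.635. The mean log2 levels were 8.0422 in 005MSXH and 8.04527 in HFD livers, with g = -1.35 (95% interval -2.32 to -0.379). The unadjusted limma p was 0.0047, rank 25 among 11728 genes, and the adjusted p was 0.9998. That rank is not on equal terms, because limma's p is larger for genes of very small SD. The SD of Tfrc exceeded that of 98.6% of the genes tested. A Wilcoxon rank-sum test gave an unadjusted exact p of 0.0115.

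The other Tfrc probe sets did not all share that difference. A second lay near the filter (mean 6.573) with g = -0.16, and another below it (mean 5.945) with g = -0.713. Among the array's control probe sets for this transcript, those for the 5′ end, middle and 3′ end had g = -0.929, 0.175 and 0.194, and only the last lay above the filter level. Their correlation with the probe set used ran from rho = 0.0316 to 0.508.

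Scara5, a ferritin receptor, had the widest range of the 10 genes and ranked 6 of 11728 by SD on the deposited scale. Its log2 level ran from 6.9684 to 7.4526 in 005MSXH livers (median 7.2933) and from 6.9708 to 7.4087 in HFD livers (median 7.2774). Replicate 3 was the lowest mouse in both diets, and the groups overlapped almost completely (g = 0.28, 95% interval -0.601 to 1.16, limma adjusted p = 0.9998). A second Scara5 probe set followed the first (rho = 0.555) on a far smaller scale, with an SD of 2.98e-05 against 0.143. Scara5 also moved with the median of the array (rho = 0.665, permutation p = 0.0017; r = 0.644, permutation p = 0.00249), whose part in its spread was not tested.

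Slc40a1 encodes ferroportin, the only known cellular iron exporter and the target of hepcidin. It ran from -1.14 to 1.31 SD units in 005MSXH livers (median -0.146) and from -1.69 to 2.46 in HFD livers (median -0.102), with HFD mice spread more widely. Its probe sets followed each other (rho = 0.795) and had g = -0.0319 and -0.074. Kupffer cells, which recycle iron from red cells and express ferroportin, had markers with a median g of -0.17, 1 of 8 above 0. The average of the 8 markers in SD units ran from -1.94 to 1.86 in 005MSXH livers (median 0.277). In HFD livers it ran from -0.828 to 1.52 (median -0.0236), so the direction depends on the summary. Their part in the Slc40a1 values was not tested.

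**Figure D2:**
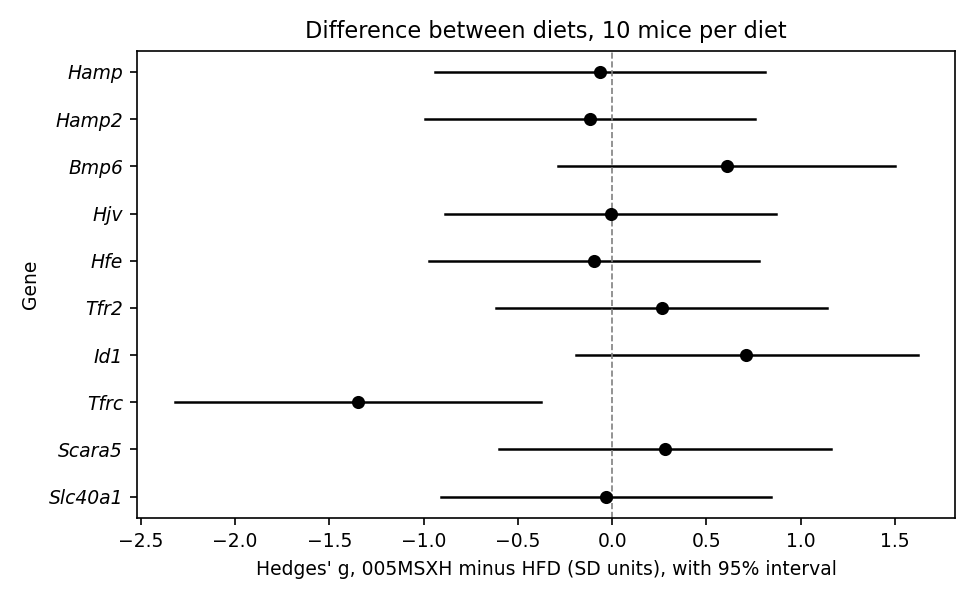
Points show Hedges' g for 005MSXH minus HFD in SD units (horizontal axis) for each gene (vertical axis), and lines its 95% interval with 10 mice per diet. The interval of Tfrc, -2.32 to -0.379, is the only one of the 10 that leaves out 0.

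In all, 0 of the 10 genes differed between the diets at an adjusted p of 0.05 in limma, where 0% of the 11728 genes tested did. At an unadjusted p under 0.05 there was 1 of 10, Tfrc, against a background of 3.62% of all genes (1.74% lower and 1.88% higher in 005MSXH). Genes of very small SD, such as Tfr2 and Hfe, reach that p less readily at the same g. The g of the 10 genes was above 0 for 4 and below 0 for 6, with a median of -0.0198 against -0.00692 over all genes tested. A p that misses the threshold does not show equal levels, and the intervals of the 9 genes other than Tfrc reach from -0.994 to 1.62 SD units.

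Other genes of the pathway were taken from lists by function, and 0 passed an adjusted p of 0.05 in the diet comparison. Of 27 further genes of BMP and SMAD signalling, 14 had g above 0 and 13 below (median 0.00138). At an unadjusted p under 0.05, 2 were higher, the receptor Bmpr2 (g = 1.19, p = 0.0219) and the ligand Bmp4 (g = 1.08, p = 0.0195). The next by p was Smad6, an inhibitory SMAD induced by BMP signalling (g = 0.81, p = 0.0697). Tmprss6, the protease that cleaves hemojuvelin, had g = 0.457 and Smad7 0.498, both added after values were seen. The SMAD target Atoh8 went the other way, with g = -0.272.

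Of 23 genes for iron transport, storage and sensing, 14 had g above 0 (median 0.0443). The metalloreductase Steap2 had g = 0.971 (unadjusted p = 0.0336). The iron regulatory proteins, which bind Tfrc mRNA, had g = -0.782 (Ireb2, p = 0.079) and -0.734 (Aco1, p = 0.0997). The zinc and iron importer Slc39a14 had g = 0.055. Of 19 genes of IL-6 signalling and the acute phase, 6 had g above 0 (median -0.0588), and the smallest p was that of Crp (g = -0.913, p = 0.0433). Of 23 heme and iron-sulfur genes, 16 had g above 0 (median 0.22), with the mitochondrial iron importer Slc25a28 at 1.03 (p = 0.0325) and the heme synthesis enzyme Urod at 0.95 (p = 0.0365).

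How the 10 genes vary together over the 20 mice was then described by rank correlation. Of 45 pairs, 2 had a rho beyond 0.5 in size, and both involved Id1. That count was 4 within 005MSXH, 11 within HFD, 4 with the probe sets of largest spread and 12 once array medians were made equal. The last count is no test of co-variation. Array medians spanned 6.5053 to 6.5055, wider than the range over mice of Tfr2 (6.93e-06), Hfe (1.07e-05) or Bmp6 (6.18e-05). Subtracting them puts the same variation into such genes. Hamp and Id1 ran in opposite directions (rho = -0.537, permutation p = 0.0161; r = -0.594, permutation p = 0.00586). In 005MSXH mice rho was -0.479 and in HFD mice -0.697, and with the 2 mice of most extreme Hamp left out r was -0.392 and rho -0.379. Mice with more Hamp thus tended to have less Id1 in both diets, and the relation rests in part on those mice. Tfrc and Id1 likewise ran in opposite directions (rho = -0.602, permutation p = 0.00614; r = -0.564, permutation p = 0.0096). That relation was seen mostly in HFD mice, with rho -0.358 in 005MSXH and -0.77 in HFD, and the difference between diets was not tested. With the 2 mice of most extreme Tfrc left out, r was -0.604.

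With the probe sets used, the other relations of Hamp had a rho under 0.5 in size. Hamp with Hamp2 gave rho = 0.0481, with Bmp6 -0.224, with Hfe -0.00902, with Hjv 0.335, with Tfr2 -0.245, with Scara5 0.0962 and with Slc40a1 0.251. The Tfr2 probe set not used had a rho of -0.544 with Hamp. For Hamp with Tfrc rho was 0.253. In 3 of these pairs the diets stood apart, with rho -0.0182 in 005MSXH and 0.648 in HFD for Tfrc, -0.212 in 005MSXH and 0.636 in HFD for Slc40a1, and 0.0667 in 005MSXH and -0.552 in HFD for Tfr2, and these differences were not tested. Spearman's correlation of Hamp was 0.205 with the array median (permutation p = 0.386) and 0.117 with the difference between the 3′ and 5′ actin probe sets, which tracks RNA degradation (permutation p = 0.621), and -0.0962 with the same difference for Gapdh (permutation p = 0.686). Hamp2 had a rho of -0.417 (permutation p = 0.068) and an r of -0.452 (permutation p = 0.0439) with the Gapdh difference, whose part in its values was not tested.

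**Figure D3:**
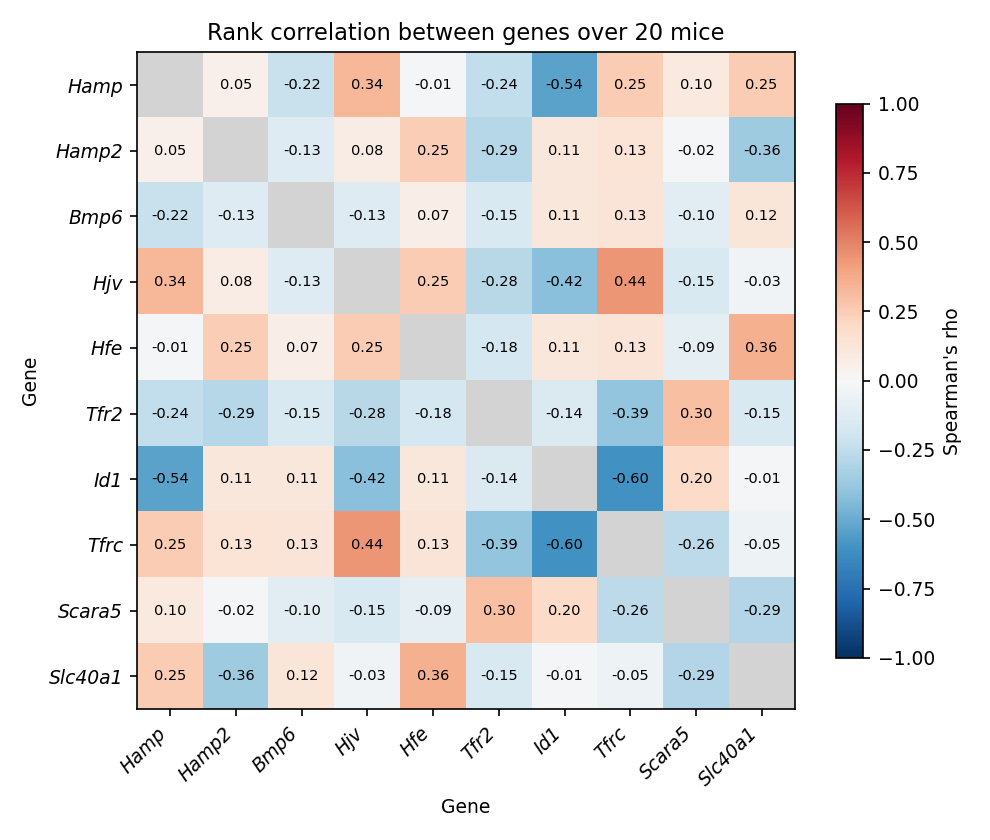
Each cell gives Spearman's rho between 2 of the 10 genes over the 20 mice, from blue (negative) to red (positive). The most negative cells are Tfrc with Id1 (-0.602) and Hamp with Id1 (-0.537), and the Hamp and Hamp2 cell is near 0 (0.0481).

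To read these pairs against the whole liver, every gene was regressed on Hamp with diet as a covariate. In limma 3 of 11727 genes passed an adjusted p of 0.05 (0.0256%, or 0.00853% positive and 0.0171% negative), and 0 of the 9 other iron genes did. Id1 came closest (partial r = -0.624, unadjusted p = 0.00356, adjusted p = 0.302), where 9.33% of all genes had an unadjusted p under 0.05. Over the 9 genes the median partial r was 0.129, against -0.0211 for all genes.

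Among the lists, 0 genes passed in that regression either. In IL-6 signalling, Socs3, the feedback inhibitor induced by STAT3, had a partial r with Hamp of -0.571 (p = 0.00919), Stat3 itself -0.538 (p = 0.0159) and Creb3l3 -0.509 (p = 0.0274). In BMP and SMAD signalling, the SMAD target Atoh8 had -0.515 (p = 0.0217), Bmp5 -0.469 (p = 0.0388) and Bmpr2 0.468 (p = 0.0718). Bmpr2 had a far smaller SD than Bmp5 (3.13e-06 against 0.000126), which raises limma's p at the same size of partial r. The acute phase genes Saa1 (0.23), Saa2 (0.125), Crp (0.337), Orm1 (0.164) and Orm2 (0.211) had a partial r above 0. Fga (-0.225), Fgb (-0.173) and Fgg (-0.287) lay below 0. The IL-6 signalling and acute phase genes thus did not share a sign, and the median partial r of that list was -0.173. Among iron transport genes, haptoglobin (Hp) had 0.575 (p = 0.00931), Lrp1, a heme-hemopexin receptor, -0.543 (p = 0.0144) and Steap4 -0.41 (p = 0.0752). In the heme and iron-sulfur list, the heme breakdown enzyme Blvrb had -0.585 (p = 0.0073), Slc46a1 -0.571 (p = 0.00943) and the last heme synthesis enzyme Fech -0.541 (p = 0.0148). These p-values are unadjusted, and the adjusted ones ran upward from 0.371.

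The genes most like Hamp were ranked by rho over the 20 mice. The 6 lowest rho among the genes tested belonged to Atp5g2, a subunit of ATP synthase (-0.847), Nr1d2, the clock repressor REV-ERB beta (-0.824), Tns2 (-0.817), Dbp, a clock output transcription factor (-0.815), Pdp2, a pyruvate dehydrogenase phosphatase (-0.806), and Maff (-0.753). For Nr1d2 rho was -0.927 in 005MSXH and -0.733 in HFD mice. For Dbp it was -0.77 in 005MSXH and -0.842 in HFD mice, and both probe sets of each gene had the same sign. With the 2 mice of most extreme Hamp left out, r was -0.805 for Nr1d2 and -0.749 for Dbp. Dbp (mean 6.864) and Maff (6.788) were measured near the filter level of 6.5054.

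The 6 highest rho belonged to Drg1 (0.782), Rnf144a (0.765), Defb1, an antimicrobial beta-defensin (0.756), Tspyl4 (0.753), Exoc2 (0.75) and Trip4 (0.75). Both probe sets of Defb1 ran with Hamp, whereas 1 of 3 of Drg1, 1 of 3 of Rnf144a and 1 of 2 of Tspyl4 did. The genes past the threshold in the regression were Nr1d2 (partial r = -0.837, adjusted p = 0.0289), Pdp2 (-0.83, adjusted p = 0.0289) and Tspyl4 (0.852, adjusted p = 0.0275). Tspyl4 was measured near the filter level, at a mean of 6.661 against 6.5054. Dbp had an adjusted p of 0.0842 and Tns2 of 0.0705. With Spearman's correlation 0 genes passed, and likewise 0 once the 2 mice of most extreme Hamp were left out. With array medians made equal 1 passed, Nr1d2 (adjusted p = 0.0351), while Pdp2 (0.472) and Tspyl4 (0.166) did not. The SDs of Pdp2 (8.73e-05), Tspyl4 (0.000129) and Nr1d2 (0.000477) are not small among the genes tested. That of Slc40a1, 5.74e-05, already exceeds 80.5% of them. The part of the shift in the lost calls of Pdp2 and Tspyl4 was not tested. Leaving out 1 mouse gave 0 to 5 genes, and 0 without HFD replicate 1, 4, 6 or 9 or without 005MSXH replicate 2.

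**Figure D4:**
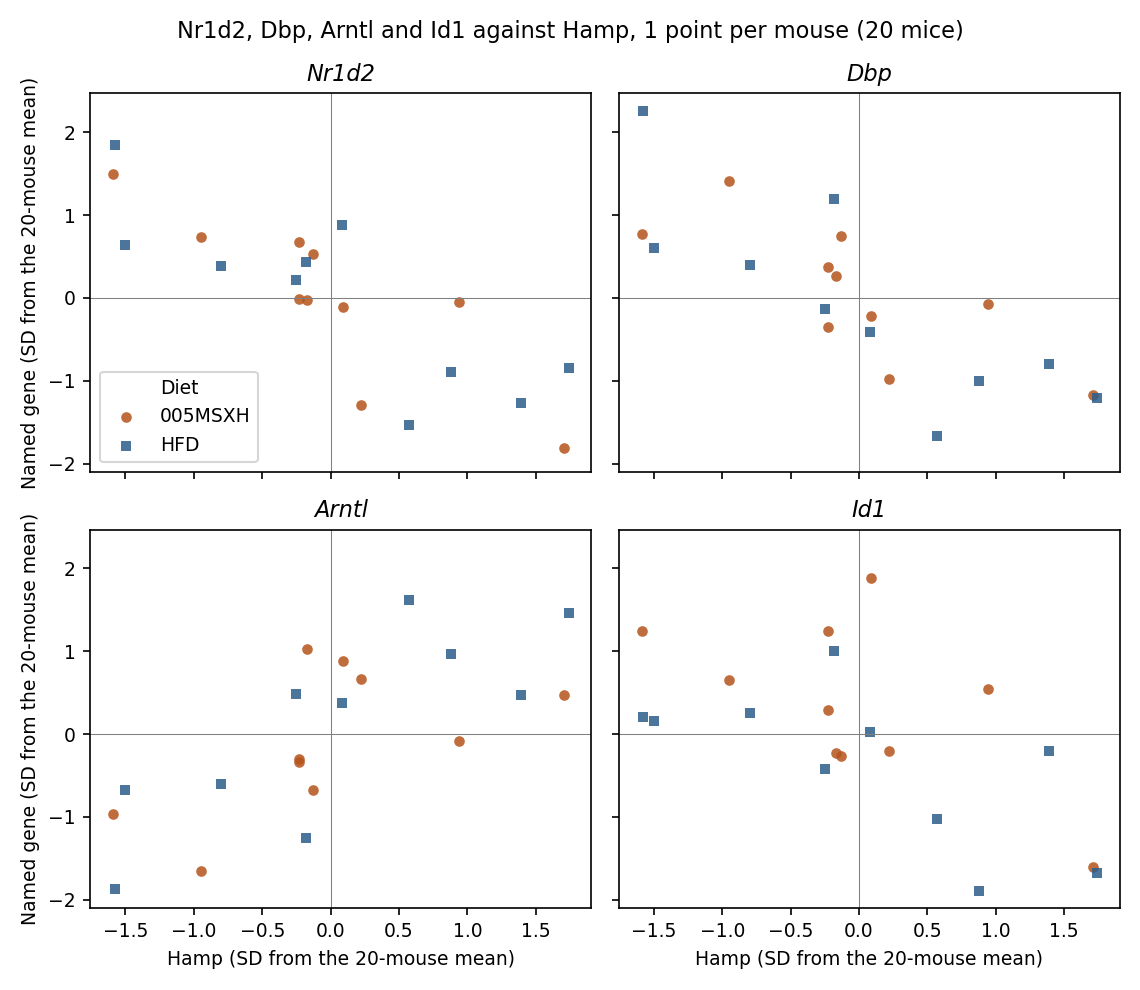
Each point is 1 mouse, with Hamp on the horizontal and Nr1d2, Dbp, Arntl or Id1 on the vertical axis, all in SD units from the 20-mouse mean. Nr1d2 (rho = -0.824) and Dbp (-0.815) slope down and Arntl (0.705) slopes up in both diets, and Id1 (-0.537) scatters more.

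Further clock genes were then looked up, a choice made after the values of Nr1d2 and Dbp were seen, so they are a description only. Of 12 such genes, 2 had a rho with Hamp above 0.5 and 3 below -0.5, where 2.65% of the 11727 genes tested lay above 0.5 and 3.14% below -0.5. Arntl, which encodes the activator BMAL1, ran with Hamp (rho = 0.705, being 0.624 in 005MSXH and 0.758 in HFD), as did Cry1 (0.576). Per3 (-0.702), Tef (-0.692) and Nr1d1 (-0.671) ran against it, along with Nr1d2 and Dbp. Clock (0.182), Per1 (-0.0857), Per2 (0.126) and Hlf (-0.129) showed little relation. Per3 (mean 6.722), Per2 (6.734) and Nr1d1 (6.967) were measured near the filter level of 6.5054. With Id1, rho was -0.591 for Arntl, -0.659 for Cry1 and 0.603 for Dbp, opposite in sign to that with Hamp, while Per1 (-0.168) and Hlf (-0.286) had the same sign with both. The time of day at which each mouse was killed was not analysed here, nor was its part in these relations tested.

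The same regression on Tfrc called 0 of 11727 genes in limma (0%), with 8.88% at an unadjusted p under 0.05, and 0 of the 9 other iron genes. With Spearman's correlation 0 genes passed as well. Id1 had a partial r of -0.463 (unadjusted p = 0.0416, adjusted p = 0.542), Tfr2 -0.545 (p = 0.0568), Hamp 0.401 (p = 0.0827) and Bmp6 0.398 (p = 0.0867). Without diet as a covariate the values were -0.564 for Id1, -0.519 for Tfr2, 0.343 for Hamp and 0.114 for Bmp6. The genes with the highest rho were Maob (0.786), Dnajb4 (0.767), Tbc1d5 (0.765) and Mxd3 (0.753). The lowest were Prcp (-0.811), Cd9, a tetraspanin (-0.803), Eef1a1 (-0.765) and Zfp275 (-0.759). Without HFD replicate 2 the count was 10, without 005MSXH replicate 5 it was 2 and without 005MSXH replicate 10 it was 1.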

How the data were processed

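Liver RNA of 20 mice was measured on 1 array each, labelled with a 3′ IVT biotin kit per the labels' protocols. The authors deposited values for 45101 probe sets, taken here as log2 levels because they reach 14.96, beyond what a scanner reading could give as a natural log (11.09) or log10 (4.82). How the authors corrected, normalized and summarised the probes is not given in the sources used here. The median of an array was 6.5053 to 6.5055. Precision is limited by the number of arrays.

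The 64 control probe sets were left out. Probe sets with 1 gene in the platform annotation (34945 of 45037, with 932 naming several and 9160 none) gave 18193 genes, 1 probe set each. Genes were kept if their mean reached 6.5054, the median over probe sets, which left 11728. Diets were compared, and genes regressed on Hamp and Tfrc, by limma's lmFit and eBayes (limma 3.58.1, R 4.3.3) on the deposited log2 values. The eBayes step draws each gene's variance toward a common value. At equal effect size, a gene of very small SD therefore gets a larger limma p, which limits shares and ranks by that p. P-values were adjusted by Benjamini-Hochberg over all genes tested. The fits were run on simulated data in which genes were drawn independently of each other. Such data do not show the rate of false calls among correlated genes. Permutation tests were two-sided with 100000 resamples. Named genes were the 10 members, up to 3 of each list by the smallest p in each fit, and those with the 6 highest and 6 lowest rho with Hamp (4 and 4 for Tfrc). Smad7, Tmprss6 and Slc39a14 were added for their roles after values were seen, as were Saa1, Saa2, Orm1, Orm2, Fga, Fgb and Fgg. The members and lists were chosen with earlier results of these data known. Alternatives covered scaling, filter, probe set, variance model, array weights, rank tests, the replicate number and leaving out each array. Sequences are RefSeq's, aligned with Biopython 1.88. Figures were drawn with matplotlib 3.10.9.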

Additional observations from a re-analysis of the deposited data

Results flagged for a closer look

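For the 10 genes in the 2 diets, 20 sets of 10 mice were searched for a mouse far from the others, and 1 was found, where chance gives about 1 in 20. Hjv in 005MSXH replicate 10 lay above the other mice of its diet, with a gap to the nearest of 0.561 of the group's range.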

How the results depend on the processing

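The diet comparison called 0 genes under every alternative and with each mouse left out. At an unadjusted p under 0.05 it gave 425 genes, 46 once array medians were made equal (arrays shifted), 128 with quantile normalization, 780 without the filter, 197 with a filter at the 75th percentile, 704 over every probe set, and 318 to 598 with 1 mouse left out. Tfrc kept g below 0 throughout (-1.57 to -1.24 with 1 mouse left out). With arrays shifted, g was 0.176 for Slc40a1, 0.297 for Hfe and 0.0862 for Hjv, against the sign reported. The array medians (6.5053 to 6.5055) differ by more than most probe sets vary (median SD 9.33e-06). The shift thus puts the same variation into genes of small SD, and counts after it are no test of robustness for them. With quantile normalization it was 0.204 for Hamp, 0.227 for Hfe, 0.634 for Hjv and -0.0563 for Bmp6, and Tfr2 and Slc40a1 became constant and gave no value. With the probe set of largest spread Hfe had 0.47. Leaving out 1 mouse moved g between -0.262 and 0.12 for Hamp, -0.258 and 0.248 for Hamp2, -0.261 and 0.0881 for Hfe, -0.376 and 0.1 for Hjv, -0.222 and 0.265 for Slc40a1, 0.446 and 0.991 for Bmp6 (highest without 005MSXH replicate 4), 0.0738 and 0.507 for Tfr2 (lowest without 005MSXH replicate 7, highest without 005MSXH replicate 8), and 0.0941 and 0.577 for Scara5 (lowest without HFD replicate 3, highest without 005MSXH replicate 3). The count of genes that vary with Hamp was 3, and 0 with Spearman's correlation, 0 without the 2 mice farthest in Hamp, 1 with arrays shifted and 0 to 5 with 1 mouse left out (5 without HFD replicate 5). For Tfrc it was 0, and 0 to 10 with 1 mouse left out (10 without HFD replicate 2). Correlations between same-numbered mice of the diets ran from -0.136 to 0.373. Their mean was 0.0532, against -0.00604 for other-numbered mice. These values show no clear pairing by number, which is not proof of its absence. With the replicate number as a block the count was 139 for Hamp and 0 for Tfrc, and 501 genes differed by diet at an unadjusted p under 0.05. Under the block the partial r with Hamp was -0.203 for Hamp2 and 0.151 for Hfe, and that with Tfrc -0.026 for Hamp2 and 0.163 for Slc40a1. Without the 2 farthest mice Hfe had 0.0633 with Hamp and Scara5 0.0444 with Tfrc, and with arrays shifted Hfe had -0.0128 with Tfrc. Leaving out 1 mouse gave -0.203 to 0.261 for Hamp2 and -0.178 to 0.0971 for Hfe with Hamp, and -0.206 to 0.112 for Scara5 and -0.162 to 0.175 for Slc40a1 with Tfrc. The adjusted p of Nr1d2 was 0.0762 with Spearman's correlation, 0.395 without the 2 farthest mice and 0.0612 under the block, and its call was lost in 8 of 20 fits with 1 mouse left out (11 for Pdp2, 5 for Tspyl4). Pairs of iron genes with rho beyond 0.5 numbered 2, and 4 within 005MSXH, 11 within HFD, 12 with arrays shifted and 4 with the probe sets of largest spread. The cause of these changes was not tested.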
